A study of Homo sapiens with 12 samples.

Results

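The genes of 5 laminin chains, LAMA4, LAMA5, LAMB1, LAMB2 and LAMC1, were followed in libraries of WM1366, an established cell line from a human cutaneous melanoma. They were taken by gene symbol. The files listed 4 of the 5 among 12931 rows, and LAMA5 was not analysed here. LAMA4 was selected on its high values in R1 against control, so its differences between groups are given as a description without a test. The 12 RNA sequencing libraries formed 3 groups of 4. Groups R1 and R2 carried the label of a diet with a MEK inhibitor and a CDK4/6 inhibitor, and the control group that of a control diet. The series describes WM1366 xenograft tumours that progressed on these diets, in mice whose strain and age the sources used here do not give. The labels of single libraries instead speak of cultured cells, and they give palbociclib at 0.1 uM (a CDK4/6 inhibitor) and PD0325901 at 1 nM (a MEK inhibitor) as the treatment of all of them, also of control. How R1 differs from R2 is not labelled, nor whether the replicates of a group were separate tumours or cultures, so p-values measure only the spread between these libraries.

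Laminins are secreted, cross-shaped proteins of basement membranes, each built from 1 alpha, 1 beta and 1 gamma chain. The alpha chain carries the globular end that binds integrins and dystroglycan on cells, while beta and gamma chains are joined to it as a coiled coil inside the cell before secretion. The LAMA4 chain is known mainly from basement membranes of blood vessels, muscle, fat and nerve, where it pairs with LAMB1 or LAMB2 and with LAMC1. LAMA5 is the broadly expressed alpha chain of adult basement membranes. LAMB3 is the beta chain of the epithelial laminin that holds skin to its basement membrane, in which LAMA3 is the alpha chain.

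Depth in the listed genes was 20003891 to 39009384 reads per library. Of 9 melanocyte lineage markers, MITF and PMEL were listed, while SOX10, MLANA, TYR, DCT, TYRP1, S100B and S100A1 were not. MITF averaged 23.5 in R1, 30.4 in R2 and 50.3 in control, whereas PMEL averaged 27.1, 8.81 and 5.32. Of 5 markers of undifferentiated melanoma, 4 were listed, with AXL highest at 825 ± 144 in R1, 1441 ± 96.5 in R2 and 1584 ± 80.1 in control. At a limma adjusted p under 0.05, AXL, EGFR and WNT5A were lower in R1 than in control and SOX9 was not, where 21.4% of all rows were lower. In R2 against control only WNT5A was lower, where 14.8% of all rows were. R1 replicate 2 stood apart from its group: its log2 values correlated with the other R1 libraries across genes at r of 0.968 to 0.978, against 0.981 to 0.991 among those 3. Each of the 7 laminin chains described here was highest in that library within R1, so values are also given without it. Mitochondrial transcripts took 2.17% to 3.28% of the reads in R1, 4.02% to 9.63% in R2 and 5.86% to 10.9% in control, and what part this has in the results was not tested.

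The promoter sequences of LAMA4, LAMB3, LAMB1 and LAMC1 are shown because the first 2 genes had the widest differences between groups and the other 2 are the abundant chains that LAMA4 can pair with. Each is the 250 bases before the start of transcription in RefSeq (GRCh38.p14), 5′ to 3′ on the strand of the gene, with every CpG in capitals. They lie at chr6:112254568-112254817 on the minus strand for LAMA4, chr1:209652426-209652675 on the minus strand for LAMB3, chr7:108003162-108003411 on the minus strand for LAMB1 and chr1:183023170-183023419 on the plus strand for LAMC1. The outermost GENCODE start of LAMA4 lies upstream of its window, which is therefore within the GENCODE span of the gene.
LAMA4: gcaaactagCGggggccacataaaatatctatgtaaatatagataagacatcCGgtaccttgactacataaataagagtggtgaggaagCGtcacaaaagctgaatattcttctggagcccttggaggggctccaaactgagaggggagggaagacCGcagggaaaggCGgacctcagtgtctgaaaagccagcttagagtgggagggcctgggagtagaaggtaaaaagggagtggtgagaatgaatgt
LAMB3: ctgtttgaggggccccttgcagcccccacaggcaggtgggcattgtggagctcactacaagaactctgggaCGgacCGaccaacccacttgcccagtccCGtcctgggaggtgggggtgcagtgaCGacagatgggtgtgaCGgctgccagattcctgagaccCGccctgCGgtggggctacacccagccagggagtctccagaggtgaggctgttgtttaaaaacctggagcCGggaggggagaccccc
LAMB1: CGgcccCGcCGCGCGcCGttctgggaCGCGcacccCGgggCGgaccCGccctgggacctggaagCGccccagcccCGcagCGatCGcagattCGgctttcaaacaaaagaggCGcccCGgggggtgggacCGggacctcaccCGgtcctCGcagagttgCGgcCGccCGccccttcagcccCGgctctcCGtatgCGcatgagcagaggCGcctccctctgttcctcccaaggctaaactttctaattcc
LAMC1: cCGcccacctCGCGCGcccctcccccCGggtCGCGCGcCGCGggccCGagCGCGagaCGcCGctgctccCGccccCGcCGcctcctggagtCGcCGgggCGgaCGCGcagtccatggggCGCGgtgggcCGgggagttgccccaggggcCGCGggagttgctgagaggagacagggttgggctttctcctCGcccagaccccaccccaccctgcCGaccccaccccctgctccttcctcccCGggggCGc

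The capitals are sparse in LAMA4, with 5 CpG, and in LAMB3, with 8, but dense in LAMB1, with 28, and in LAMC1, with 32. The fifth window, of LAMB2, held 12, and the median over 35116 RefSeq promoter windows of that length was 11. As few CpG as in LAMA4 were held by 38.1% of all windows, and as many as in LAMC1 by 9.52%. The GGGCGG box, searched on both strands, was found 4 times in LAMB1, 3 times in LAMC1, once each in LAMB3 and LAMB2, and not in LAMA4, while 42.6% of all windows held it. TGANTCA and GGAATG, also searched on both strands, are not in any of these 5 windows, and 6.57% and 11.9% of all windows held them.

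The alpha chain gene LAMA4 was close to 0 in control, low in R2 and high in R1. It spans chr6:112108760-112254939 on the minus strand (GRCh38, GENCODE v29). In normalised read counts, which the authors scaled for library size, LAMA4 stood at 64.2, 130, 62.7 and 62.8 in R1 replicates 1 to 4. It stood at 2.15, 3.91, 5.62 and 4.50 in R2 and at 0.441, 0.350, 0.729 and 0.735 in control. No library of one group reached into the range of another, and R1 replicate 2 held 2.05 times the mean of the other R1 libraries. The control values rest on 9 to 14 reads per library, those of R2 on 74 to 180 and those of R1 on 1652 to 2954.

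Group means of LAMA4 were 79.8 ± 33.2 in R1, 4.04 ± 1.45 in R2 and 0.564 ± 0.198 in control (SD, n = 4 each). The ratio of means was 142 for R1 over control and 7.17 for R2 over control. Without R1 replicate 2 the R1 mean was 63.3 ± 0.83 (n = 3) and the ratio to control 112. On the log2(value + 0.5) scale, which understates the change of low genes, R1 minus control was 6.18, R2 minus R1 was -4.13 and R2 minus control was 2.05. All 3 are given without a test, since the R1 and control values chose the gene. In bulk RNA, fewer cells with a transcript and less of it per cell cannot be told apart.

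**Figure D1:**
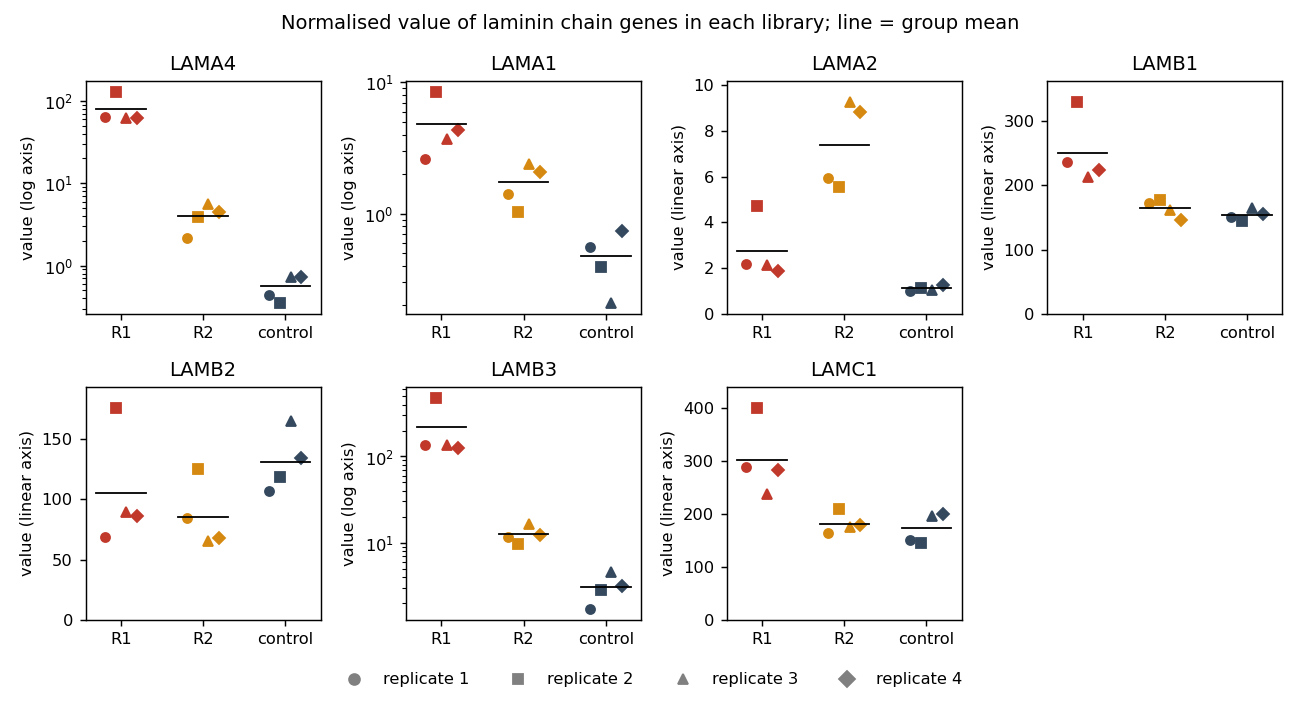
Normalised read counts of 7 laminin chains in each library, with R1 left, R2 in the middle and control right. Points are libraries, the bar marks the group mean, and the axis is logarithmic or linear as each panel says. LAMA4 and LAMB3 differ between the groups by the widest margins, and 1 R1 library, replicate 2, is the highest point of R1 in every panel.

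LAMB1 and LAMC1, the beta and gamma chains that LAMA4 can join, were already abundant in control and were moderately higher in R1. LAMB1 stood at 236, 330, 213 and 223 in R1, at 172, 177, 161 and 146 in R2, and at 151, 145, 164 and 156 in control. All 4 R1 libraries were above every R2 and control library, while R2 and control overlapped. LAMB1 rose in R1 against control (log2 0.68, SE 0.13, limma adjusted p = 0.000682), with means of 250 ± 53.6 and 154 ± 8.25. Without R1 replicate 2 the difference was 0.54 (adjusted p = 0.000421).

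LAMC1 (chr1:183023460-183145592, plus strand), the gamma chain of most laminins, stood at 289, 399, 238 and 282 in R1, at 163, 209, 175 and 180 in R2, and at 150, 146, 196 and 200 in control. Again the 4 R1 libraries lay above all others and the R2 and control ranges overlapped. LAMC1 rose in R1 against control (log2 0.79, SE 0.16, limma adjusted p = 0.000997), with means of 302 ± 68.5 and 173 ± 29.1, and by 0.65 without R1 replicate 2 (adjusted p = 0.00158).

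In R2 against control neither chain passed the test. The difference was 0.09 for LAMB1 (95% interval -0.18 to 0.36, limma adjusted p = 0.643) and 0.08 for LAMC1 (-0.25 to 0.41, adjusted p = 0.748). R2 was lower than R1 in both, by a log2 difference of -0.59 for LAMB1 (adjusted p = 0.0018) and -0.71 for LAMC1 (adjusted p = 0.00195).

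LAMB2, the beta chain known from kidney filter, muscle synapse and vessel laminins, did not follow them. It stood at 68.8, 176, 89.9 and 86.4 in R1, at 84.4, 125, 65.6 and 67.6 in R2, and at 107, 118, 165 and 134 in control. There was overlap between the groups in every comparison, and replicate 2 was the high library in both R1 and R2. The difference was -0.39 for R1 minus control (95% interval -0.95 to 0.17, limma adjusted p = 0.24), -0.64 for R2 minus control (-1.20 to -0.083, adjusted p = 0.0809) and -0.25 for R2 minus R1 (-0.81 to 0.31, adjusted p = 0.454). These values hang on single libraries. Without R1 replicate 2, R1 minus control was -0.67 and passed the test (adjusted p = 0.0171), R2 minus control was -0.64 and also passed it (adjusted p = 0.0201), and R2 minus R1 turned to 0.028 (adjusted p = 0.922). Without R2 replicate 2, R2 minus control was -0.84 (adjusted p = 0.0253).

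Leaving aside LAMA4, 2 of the 3 other members listed rose in R1 against control, where 22.4% of all rows rose and 43.8% were called in either direction. The same 2 had ranges that did not overlap, as 39.7% of all rows did. In R2 against control, 0 of the 3 were called, where 13.6% of all rows rose, 14.8% fell and 28.4% were called in all. Their ranges all overlapped, while 34.8% of all rows had ranges that did not. In R2 against R1, 2 of the 3 were lower and had ranges apart. There 24.0% of all rows were lower, 22.8% higher and 46.8% called, and 39.4% had ranges apart. The median log2 difference over the 4 members was 0.73 for R1 minus control, 0.08 for R2 minus control and -0.65 for R2 minus R1, beside medians over all rows of 0.01, 0.03 and -0.00095. LAMA4 is within these medians although its R1 and control values chose it, and 4 genes are too few to call the share particular to them.

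**Figure D2:**
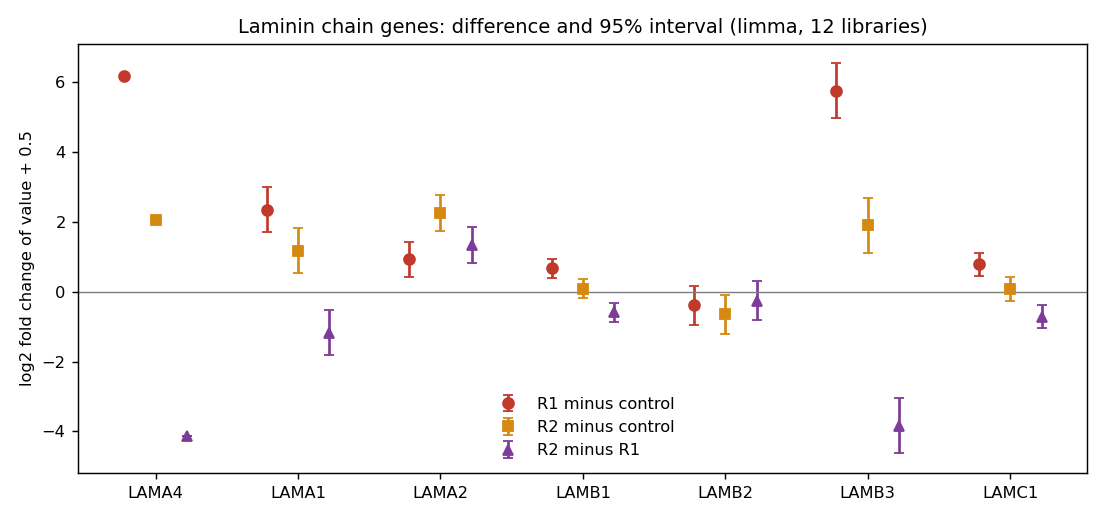
Log2 differences of 7 laminin chains for R1 minus control, R2 minus control and R2 minus R1, on the log2(value + 0.5) scale. Bars show 95% intervals from the fit over all libraries, and LAMA4 has none, since its R1 and control values chose it. LAMA4 at 6.18 and LAMB3 at 5.76 stand far above LAMC1 at 0.79 and LAMB1 at 0.68 in R1 minus control.

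Ratios within a library do not depend on its scaling. The ratio of LAMB1 to LAMC1 averaged 0.832 ± 0.044 in R1, 0.910 ± 0.106 in R2 and 0.904 ± 0.113 in control, with overlapping ranges. Its log2 differed by -0.11 for R1 minus control (exact two-sided permutation p = 0.314, adjusted 0.377 over 6 ratio comparisons), by 0.01 for R2 minus control (exact p = 0.914, adjusted 0.914) and by 0.12 for R2 minus R1 (exact p = 0.229, adjusted 0.377). The ratio of LAMB2 to LAMB1 averaged 0.408 ± 0.099 in R1, 0.517 ± 0.131 in R2 and 0.846 ± 0.123 in control (SD, n = 4 each). All 4 R1 libraries, at 0.292 to 0.533, were below every control library, at 0.705 to 1.00, while the highest R2 library, at 0.706, met the lowest control. The log2 of this ratio differed by -1.07 for R1 minus control (exact two-sided permutation p = 0.0286, the smallest that 4 against 4 allows, adjusted 0.171), and by -0.73 for R2 minus control (exact p = 0.0571, adjusted 0.171). R2 minus R1 was 0.34 (exact p = 0.257, adjusted 0.377), and none of the 6 passed the correction. An exact p of 0.0286 passes it only where most of the 6 comparisons reach that value. These tests could hardly have passed, so the lack of a call does not show that the ratios are alike.

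Of 6 other laminin chains looked up, 3 were listed, LAMA1, LAMA2 and LAMB3, and these were compared with the members. All 3 rose in R1 and in R2 against control, where 22.4% and 13.6% of all rows rose. In control LAMA1 rests on 4 to 14 reads per library and LAMA2 on 20 to 29. Genes so low there may have a row only through the groups where they are high, so their rise beside those shares is a description. Among the 3 chains LAMB3 had the widest difference in R1. It stood at 135, 480, 135 and 126 in R1, at 11.7, 9.54, 16.5 and 12.1 in R2, and at 1.68, 2.80, 4.53 and 3.10 in control. No 2 groups overlapped, and R1 replicate 2 held 3.64 times the mean of the other R1 libraries. LAMB3 rose in R1 against control (log2 5.76, SE 0.37, limma adjusted p = 3.75e-08) and in R2 against control (1.91, adjusted p = 0.00139), and R2 was lower than R1 (-3.84, adjusted p = 2.2e-06). The ratio of R1 to control means was 72.3 with R1 replicate 2 and 43.6 without it. LAMA3 was not analysed here.

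The alpha chain LAMA2, known from muscle and nerve basement membranes, was highest in R2 and not in R1. It stood at 5.96, 5.54, 9.27 and 8.86 in R2, against 2.16, 4.74, 2.13 and 1.88 in R1. R2 was higher than R1 without overlap (log2 1.34, limma adjusted p = 0.000453) and higher than control, which held 1.00 to 1.26 (2.27, adjusted p = 8.61e-06). LAMA1, the alpha chain of early embryonic basement membranes, was low throughout, at 4.79 ± 2.58 in R1, 1.73 ± 0.621 in R2 and 0.474 ± 0.226 in control. It rose in R1 (2.36, adjusted p = 2.88e-05) and in R2 (1.18, adjusted p = 0.00922). Its control values rest on 4 to 14 reads per library. Without R1 replicate 2 the ratio of R1 to control means was 7.50 for LAMA1 and 1.86 for LAMA2, beside 10.1 and 2.46 with it.

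Levels of different chains were compared per kilobase of exon. Among the 3 listed alpha chains LAMA4 made up 92.6% ± 0.79 of the level in R1, 29.5% ± 5.99 in R2 and 26.0% ± 7.41 in control, a description that its choice in R1 bears on. LAMA2 made up 61.3% in R2 and 58.2% in control, but 3.47% in R1. Among the beta chains LAMB3 held 40.2% to 60.8% in R1, 4.84% to 10.7% in R2 and 1.04% to 2.14% in control.

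Summed per kilobase, the 3 alpha chains came to 17.2% to 25.7% of the LAMC1 level in R1, 3.77% to 7.37% in R2 and 0.757% to 0.972% in control, without overlap between groups. LAMA4 made up 92.6% of the R1 sum on average, so these shares are a description that its choice bears on. In control each chain in the sum rests on 4 to 29 reads per library. LAMA3 and LAMA5 are not in these sums. Per kilobase, LAMA4 in R1 at 6.90 still stood below LAMB1 at 30.8, LAMB2 at 15.3 and LAMC1 at 35.9, and in control the order was LAMC1 at 20.6, LAMB2 at 19.1, LAMB1 at 18.9 and LAMA4 at 0.0487. The first 3 levels in control overlapped between libraries.

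**Figure D3:**
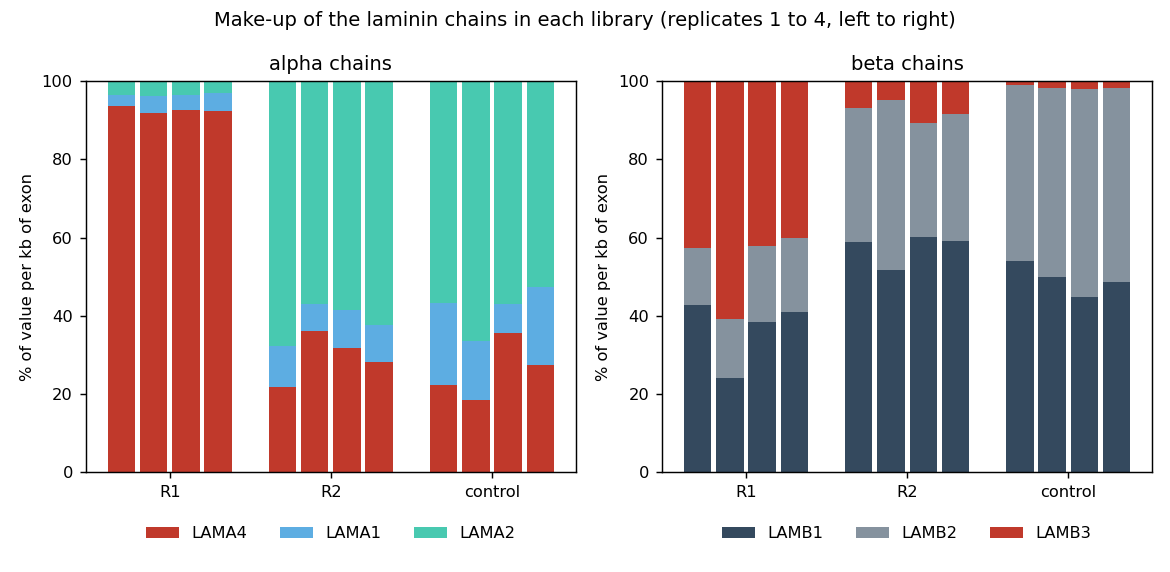
Stacked bars show the share of each listed chain in the sum of its class, per kilobase of exon, in percent, for the alpha and beta chains in each library of R1, R2 and control. LAMA4 on average makes up 92.6% of the listed alpha chains in R1, 29.5% in R2 and 26.0% in control.

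Over the 12 libraries the gene closest to LAMA4 was another laminin chain. Likeness was the root mean square difference between log2(value + 0.5) profiles, each centred on its own mean, so it is a description that follows the large R1 difference. LAMB3 had the smallest difference, 0.403, of 12930 other rows. HSD11B1, a cortisol-activating enzyme, came next at 0.699, then the MHC class II chain HLA-DRB1 at 0.706, RP11-290D2.6 at 0.792 and the actin regulator GMFG at 0.826. LAMA1 was 102nd, LAMC1 843rd, LAMB1 1208th, LAMA2 4703rd and LAMB2 9105th.

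The genes around LAMA4 showed no difference of its size. Within 1 Mb, 7 listed genes lay on 1 side, at lower coordinates. Of these, 3 were higher and 1 lower in R1 against control, with a median log2 difference of 0.23, where 43.8% of all rows were called. The nearest, FAM229B, 5970 bases away, averaged 12.6 ± 2.67 in R1, 7.47 ± 0.783 in R2 and 7.44 ± 1.32 in control. Its log2 difference was 0.71 for R1 minus control (limma adjusted p = 0.00318).

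The surroundings of LAMB3 were looked up after its values were seen, so they are given as a description. LAMB3 (chr1:209614870-209652466, minus strand) lies 22954 bases from G0S2, an inhibitor of fat breakdown, which averaged 63.5 in R1, 0.106 in R2 and 0.137 in control. HSD11B1, 33712 bases away, averaged 42.3 in R1, 5.04 in R2 and 0.049 in control. C1orf74 was also higher in R1, with a log2 difference of 0.56, while SYT14, with -2.90, and SERTAD4, with -1.80, were lower. In all, 3 of the 7 listed genes within 1 Mb of LAMB3 were higher in R1 against control and 2 lower. Around LAMB1 (chr7:107923799-108003255, minus strand) 0 of 10 were higher and 3 lower, and around LAMB2 (chr3:49121114-49133118, minus strand) 3 of 48 were higher and 10 lower. Over all rows 22.4% were higher and 21.4% lower.

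The library kit does not mark strand, and exons of LAMB1 overlap DLD, a mitochondrial dehydrogenase gene on the other strand. DLD averaged 43.7 ± 8.45 in R1, 50.4 ± 2.61 in R2 and 50.9 ± 5.02 in control, with a log2 difference of -0.23 for R1 minus control (limma adjusted p = 0.166). Antisense genes that the files do not list also touch exons of LAMA4, LAMC1, LAMA1 and LAMA2, and reads from a gene and its antisense partner cannot be told apart.

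Cell surface receptors of laminin were all listed, 11 of 11. In R1 against control 1 rose and 3 fell, where 43.8% of all rows were called, and in R2 against control 1 rose and 4 fell, where 28.4% were. Integrin subunit ITGA6, the alpha subunit of the main laminin-binding integrins, was the one that rose in both. It averaged 211 ± 35.7 in R1, 156 ± 19.9 in R2 and 81.0 ± 7.97 in control. Its log2 difference was 1.36 in R1 (limma adjusted p = 2.53e-06) and 0.94 in R2 (adjusted p = 0.000125).

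DAG1, which encodes dystroglycan, fell in R1 (log2 -1.20, limma adjusted p = 4.49e-05). It averaged 118 ± 27.5 in R1, 205 ± 37.1 in R2 and 267 ± 17.9 in control, and R2 was higher than R1 (0.80, adjusted p = 0.00107). MCAM, a cell adhesion molecule that binds the LAMA4 chain, averaged 614 ± 34.0 in R1, 881 ± 65.7 in R2 and 841 ± 41.7 in control. It fell in R1 against control (-0.45, adjusted p = 0.00204). BCAM, a receptor of LAMA5, was under 5 in every group and is named after its values were seen, at 0.524 in R1, 0.0726 in R2 and 2.87 in control.

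In R2 the integrin subunits ITGB4 and ITGA7 fell. ITGB4, the beta subunit that pairs with ITGA6 in hemidesmosomes, ranged over 1.31 to 7.31 in R2 and 9.94 to 41.3 in control (log2 -2.75, limma adjusted p = 0.000453). ITGA7, a laminin-binding subunit best known from muscle, averaged 14.7 ± 5.25 in R2 and 40.6 ± 11.4 in control (-1.48, adjusted p = 0.00256). ITGA3 averaged 507 ± 165 in R2 and 789 ± 182 in control, and its call (-0.66, adjusted p = 0.035) was lost without any 1 of R2 replicates 1, 3 and 4 or control replicates 3 and 4 (adjusted p 0.0506 to 0.11).

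Among 17 partners of laminin in the basement membrane, 11 were listed. In R1 against control 5 rose and 1 fell, where 22.4% of all rows rose and 21.4% fell. In R2 against control 1 rose and 4 fell, where 13.6% of all rows rose and 14.8% fell. The collagen IV chains COL4A1 and COL4A2 form the common network of basement membranes and are transcribed from a shared promoter region. COL4A1 stood at 8.03, 16.4, 17.0 and 20.7 in R1, at 0.174, 0.0465, 2.93 and 2.62 in R2, and at 0.521, 0.428, 0.313 and 0.578 in control. COL4A2 stood at 42.9, 65.9, 77.7 and 81.6 in R1, at 2.97, 0.698, 21.1 and 17.7 in R2, and at 1.92, 2.57, 2.92 and 2.26 in control.

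All R1 libraries lay above control in both collagen genes, while R2 replicates 1 and 2 were low and replicates 3 and 4 high. These pairs of R2 libraries were also the most alike over all genes, at r of 0.990 and 0.996 across genes. The control libraries paired in the same way, replicate 1 with 2 at r of 0.996 and 3 with 4 at 0.995, against 0.983 to 0.990 for the other control pairs. LAMA4, LAMB1, LAMB2, LAMC1, LAMB3 and ITGB4 were each lower in control replicates 1 and 2 than in 3 and 4. ITGB4 stood at 9.94, 12.1, 41.3 and 30.5 there, while LAMA1 and LAMA2 did not split so. In R2 the same split held for LAMA4, LAMB3, LAMA1 and LAMA2. LAMB1, LAMB2 and ITGB4 went the other way in R2, and LAMC1 did not split. The labels give no batch, and what part this has in the results was not tested. COL4A1 rose in R1 by 3.99 (log2, limma adjusted p = 2.97e-05) and COL4A2 by 4.50 (adjusted p = 0.000111). The R1 rise of COL4A6 was 1.55 (adjusted p = 0.00322). The calls of COL4A5 (0.94, adjusted p = 0.0213), TINAGL1 (0.61, adjusted p = 0.0359) and COL15A1 (-0.64, adjusted p = 0.0352) in R1 were each lost without 1 library or more. COL4A5 was lost without R1 replicate 2 or control replicate 1 or 2 (adjusted p 0.0564 to 0.0655). TINAGL1 was lost without any 1 control library or R1 replicate 1, 3 or 4, and COL15A1 without any 1 control library or R1 replicate 3 or 4 (adjusted p up to 0.111 for both).

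In R2 TINAGL1, a matrix protein that binds laminin and integrins, averaged 2.86 ± 0.939 against 24.4 ± 0.553 in control (log2 -2.93, limma adjusted p = 2.65e-07). NTN4, a netrin that binds laminin gamma chains, averaged 0.427 ± 0.299 in R2 and 5.99 ± 1.06 in control (-2.85, adjusted p = 3.25e-07). SPARC, a collagen-binding matrix protein, rose, with 459 ± 4.48 in R2 and 322 ± 38.8 in control (0.52, adjusted p = 0.00277). The other 2 falls, COL15A1 (adjusted p = 0.0386) and NID1 (adjusted p = 0.0483), were lost in 10 and 13 of 21 alternatives, and NID1, the nidogen that links laminin to collagen IV, held 3.87 ± 3.74 in R2 and 9.72 ± 3.54 in control. COL15A1 was lost without any 1 control library or R2 replicate 1, 2 or 3 (adjusted p up to 0.12), and NID1 without any 1 control library, R1 replicate 3 or 4, or R2 replicate 1 or 2 (up to 0.147).

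**Figure D4:**
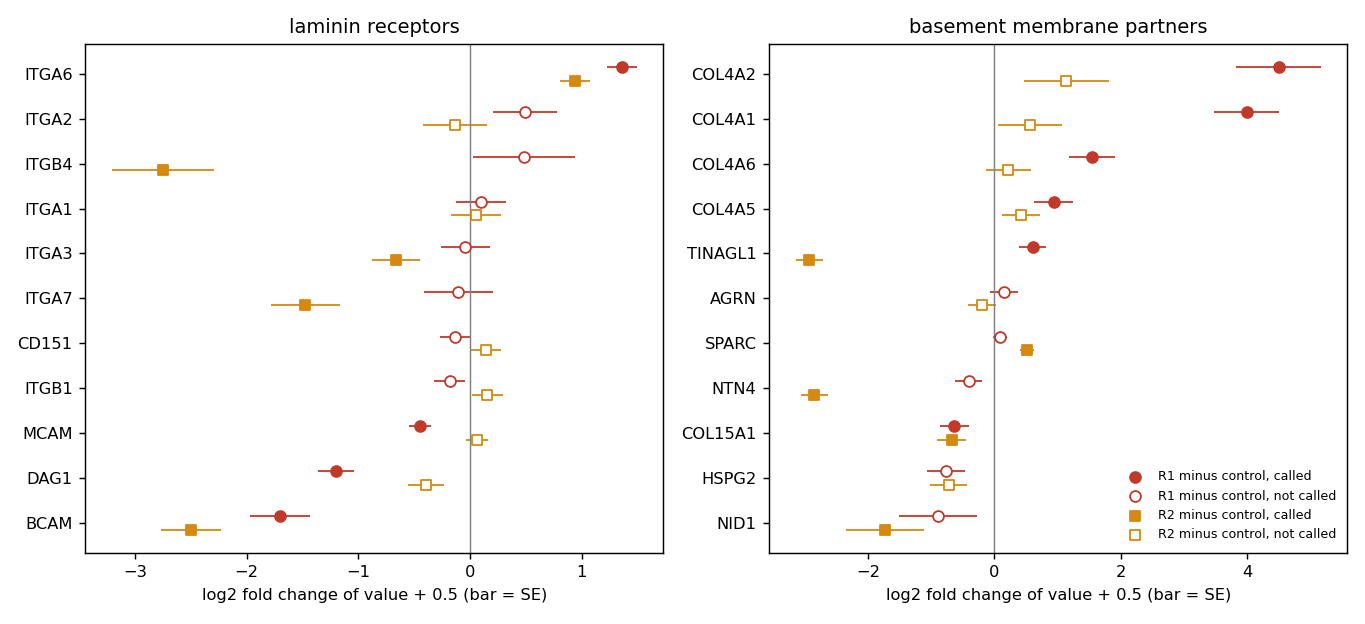
Log2 differences of the listed laminin receptors and basement membrane partners for R1 minus control and R2 minus control, on the log2(value + 0.5) scale, with the SE as a bar and filled symbols for an adjusted p under 0.05. ITGA6 is above 0 in both comparisons, DAG1 is at -1.20 in R1, and COL4A1 and COL4A2 are at 3.99 and 4.50 in R1.

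Enzymes that build the laminin-binding sugar of dystroglycan were listed for 11 of 13. In R1 against control 5 rose and 2 fell, with a median difference of 0.26, where 43.8% of all rows were called. In R2 against control 1 rose and 1 fell, where 28.4% of all rows were called. The one that rose, B3GALNT2 (0.48, limma adjusted p = 0.0215), lost its call without replicate 3 or 4 of R2 or of control (adjusted p 0.057 to 0.0739), and the other, ISPD, was under 5 in every group and is named after its values were seen. POMGNT1, which adds a sugar to the O-mannose chain, averaged 151 ± 9.44 in R1, 105 ± 7.83 in R2 and 116 ± 10.3 in control (R1 minus control 0.38, limma adjusted p = 0.00493). POMT2, a starter of that chain, rose in R1 by 0.52 (adjusted p = 0.00531) and POMGNT2 fell by 0.37 (adjusted p = 0.00366). Of 5 proteases known to cut laminin, 3 were listed. MMP14, a membrane-bound metalloproteinase, averaged 1090 ± 181 in R1, 429 ± 32.9 in R2 and 590 ± 170 in control, and it rose in R1 (0.91, adjusted p = 0.0011). The call of MMP2 in R1 (-1.06, adjusted p = 0.0288), which averaged 108 ± 73.1 in R1 and 211 ± 92.4 in control, was lost without any 1 of R1 replicates 1, 3 and 4 or control replicates 3 and 4 (adjusted p 0.0623 to 0.0933).

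Markers of other cells were read beside LAMA4, as vessels and nerve carry this chain. The sources used here name no step that separates mouse host reads. Of 13 endothelial markers 5 were listed, and CDH5, KDR, TEK, CLDN5, ERG, FLT1, ESAM and EMCN were not. The summed level of those listed was 453 to 602 in R1, 156 to 213 in R2 and 181 to 223 in control. In R1 against control 4 of the 5 rose, where 22.4% of all rows did. In R2 against control 0 rose and 2 fell, where 13.6% of all rows rose and 14.8% fell. Most of the sum was TIE1, at 357 to 474 in R1, 124 to 156 in R2 and 127 to 160 in control. ROBO4 averaged 89.3 in R1, 46.2 in R2 and 49.1 in control, EGFL7 16.2, 0.00727 and 3.61, and VWF 4.49, 0.937 and 1.76. PECAM1, not called in R1 against control, averaged 2.55, 0.697 and 2.26 in the same 3 groups. The falls in R2 against control were those of EGFL7 and PECAM1. Of 12 fibroblast and pericyte markers 6 were listed, and their sums were 514 to 670 in R1, 742 to 827 in R2 and 627 to 741 in control. Nearly all of that sum was THY1 and COL1A1, and the 4 low members did not all follow it. Of the 6 listed, 1 rose and 1 fell in R1 against control, where 22.4% of all rows rose and 21.4% fell. FAP rose, at 2.03 ± 1.14 against 0.475 ± 0.177 in control (limma adjusted p = 0.00272). COL1A1 fell, at 105 ± 34.5 against 271 ± 47.2 (limma adjusted p = 0.00268). In R2 against control 1 rose and 2 fell, where 13.6% of all rows rose and 14.8% fell. THY1 rose, at 553 and 420 (limma adjusted p = 0.0231). PDGFRB fell, at 0.331 and 4.03 (limma adjusted p = 0.000297), as did LUM, at 2.02 and 6.66 (adjusted p = 0.00173). Of 9 markers of smooth muscle, fat and Schwann cells 2 were listed, with sums of 24.4 to 58.9 in R1, 26.9 to 31.6 in R2 and 23.0 to 27.5 in control. Of 7 leukocyte markers only CSF1R was listed, at 2.87 in R1, 0.539 in R2 and 1.98 in control. What part other cells have in the LAMA4 values was not tested.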

How the data were processed

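An RNeasy mini kit served for RNA and a TruSeq RNA Library Prep Kit v2, which does not mark strand, for the libraries, per the labels' protocols. STAR, GRCh38 and edgeR are named in the submitters' processing notes, and versions, annotation and counter are not given in the sources used here. The deposited values are a normalised signal, 1 value per gene symbol and library, that the authors scaled by library size. Reads could be recovered, since 100% of the values were multiples of a step per library (tolerance 0.001 reads). The steps differ by 0.15% from those of library sizes scaled by TMM (trimmed mean of M-values). The files held 12931 rows with 12929 distinct symbols, and every row was kept.

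Group means of log2(value + 0.5) were compared with limma 3.58.1 (R 4.3.3, empirical Bayes with trend) in 1 fit of 12 libraries. Two-sided p-values were adjusted by Benjamini-Hochberg over 12931 rows, and a gene was called at an adjusted p under 0.05. The test was tried on simulated data. The planned test of LAMA4 in R2 against control is not given, since the controls took part in choosing that gene. As an alternative, edgeR's quasi-likelihood test (4.0.16) on the recovered reads called 5645 genes in R1 minus control, where limma called 5667, then 3564 beside 3667 in R2 minus control and 5988 beside 6053 in R2 minus R1. DESeq2 1.42.0, other pseudocounts, a filter, other scalings, a replicate block and leaving out each library were further alternatives. In value, 3 reads are 0.0728 to 0.158, depending on the library. Exon lengths and neighbours came from GENCODE v29, in which 11801 of the listed symbols matched 1 gene.

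The members and lists were chosen with earlier results of these data known. Beyond the laminin chains, the rule named called list members whose higher group averaged 5 or more, at most 6 per list and comparison, and some that it took are only counted. LAMA5 has no value here, so its planned tests and ratio were not run, which left 6 ratio comparisons. 1 gene is not reported here.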

Additional observations from a re-analysis of the deposited data

Results flagged for a closer look

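In 2 of 25 groups of chain values and ratios examined, 1 library lay far from the other 3 of its group, where chance alone gives about 1 in 20. The R1 and control values of LAMA4, which chose that gene, were not examined in this way. The gap of the highest R1 library to the next, as a share of the range of the R1 group, was 0.904 for LAMA2 and 0.973 for LAMB3, above Dixon's 95% critical value for 4 samples. The library was R1 replicate 2 in both, so they are not independent. It held 2.30 times the mean of the other R1 libraries for LAMA2 and 3.64 times for LAMB3.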

How the results depend on the processing

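Over 369 alternatives of 21 main results, 354 were counted as unchanged. For a tested difference this means the same direction and the same side of the threshold. For LAMA4, which has no test, it means a move of less than the spread between replicates. The main results also include the number of genes called in each comparison, which has neither a direction nor a threshold. All 21 alternatives of each such number are among the 354, so they add to it without that check. The alternatives of the 6 ratio comparisons are also among the 369, and they could hardly change their side of the threshold. With a replicate block they could not, since the smallest exact p is then 0.125. LAMA4 in R1 minus control was 6.89 with a pseudocount of 0.1, 5.63 with 1, 7.18 with edgeR and 7.16 with DESeq2, and R2 minus control was 2.61 with a pseudocount of 0.1, 2.87 with edgeR and 2.85 with DESeq2. LAMB2 also changed: R2 minus control passed the test when only the 2 groups were fitted (-0.64, adjusted p = 0.0326). Leaving out 1 library at a time gave LAMB2 values of -0.668 to -0.22 for R1 minus control, -0.838 to -0.523 for R2 minus control and -0.447 to 0.028 for R2 minus R1. LAMB1 and LAMC1 kept their calls in R1 against control and in R2 against R1 in all 21 alternatives. Of 1197 alternatives for 57 differences of other named genes, 85 lost the call and none reversed. With 1 library left out, 0 of 48 exact tests of the ratios passed the correction (lowest adjusted p 0.0857). The smallest exact p that 3 against 4 allows is 0.0286. It passes only where most of the 6 comparisons reach it, so these tests could hardly have passed. The ratio of LAMB1 to LAMC1 in R2 minus control, 0.01 on the log2 scale, was then -0.0617 to 0.0651 and reversed without R2 replicate 1 (-0.0617), control replicate 3 (-0.023) or control replicate 4 (-0.0576).

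The replicate numbers were not taken to pair libraries. Deviations of same-numbered libraries correlated at -0.31 to 0.387 between R1 or R2 and control. Between R1 and R2 they correlated at 0.0742 to 0.133, and R1 replicates 1, 2 and 4 were each closest to the R2 library of that number. These values do not settle whether R1 and R2 libraries are paired. A fit with the replicate number as a block called 5798 genes in R1 against control, 3733 in R2 against control and 6162 in R2 against R1, and changed no call of a laminin chain. With the block, the exact p of the ratios was 0.125 to 1, where 0.125 is the smallest that 4 pairs allow. Depth limits LAMA4 most in control, where 9 to 14 reads carry each value.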
